A study of Mus musculus with 6 samples.

Results

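Desmosomes are the spot-like junctions that anchor the keratin filaments of one epithelial cell to those of its neighbour. The 10 genes described here encode their parts and the hepatocyte keratins attached to them: the desmosomal cadherins Dsc2 and Dsg2, the armadillo-repeat proteins Jup, Pkp2 and Pkp4, the plakins Dsp, Ppl and Evpl, and the keratins Krt8 and Krt18. The genes were listed by name, and every probe set on the array with exactly 1 gene symbol that is one of these names was taken. This gave 24 probe sets for the 10 genes, of 45037 probe sets and 18193 genes in all, with no further probe set carrying one of the names among several.

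Both families of desmosomal cadherin, the desmocollins and desmogleins, bridge the gap between cells. Inside the cell their tails bind plakoglobin (Jup) and the plakophilins, which bind desmoplakin (Dsp), and desmoplakin holds the keratin filaments. Hepatocytes are unusual among epithelial cells in building their filaments from keratin 8 paired with keratin 18 alone, and each of these proteins is unstable without its partner. Plakophilin 4 (Pkp4, also p0071) is found at adherens junctions as well, and periplakin (Ppl) and envoplakin (Evpl) are best known from stratified epithelia such as skin.

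Whole fetal mouse livers of stage E18.5 were compared with Affymetrix arrays, 1 array per liver and 3 livers per group. Both groups carry AlfpCre, a Cre recombinase transgene driven by albumin and alpha-fetoprotein control elements and so directed to the hepatocyte lineage. Control livers are Hnf4LoxP/+ (1 flanked and 1 unflanked allele) and null livers are HNF4LoxP/LoxP (both alleles flanked). The comparison asks how fetal liver expression differs when both alleles of the nuclear receptor HNF4 alpha are targeted rather than 1. Arrays are named by title: Control_8, Control_1192, Control_1193, Null_61, Null_1191 and Null_1195.

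A value with ± is a group's mean intensity, as deposited, and its SD for n = 3 arrays. Changes are null minus control on the scale log2(intensity + 32), which understates the change of dim probe sets, and adjusted p values are limma's with Benjamini-Hochberg adjustment over all 45037 probe sets. A probe set is said to have fallen or risen where that p is under 0.05. No fold is given where a group mean lies below 99.5, the highest of the 6 array medians (the lowest is 91.8). Whole livers were used, so fewer cells of a type and less RNA per cell cannot be told apart.

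Hnf4a, the targeted gene, was read first. Of its 4 probe sets, 1421983_s_at fell from 1155 ± 40.6 to 718 ± 166 (adjusted p = 0.0434) and 1450447_at from 517 ± 22.9 to 346 ± 60.9 (adjusted p = 0.0488), and the other 2 were not called. Signal remained in every null, and in 1427001_s_at Null_1195, at 2778, lay within the controls. Whether these probe sets lie in the deleted part of the gene was not determined, so they do not check the deletion.

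Messages of both hepatocyte keratins, of the cadherin Dsc2 and of the plakophilin Pkp2 were lower in the null livers, while those of plakoglobin and of the 3 plakins showed no call in either direction. With each gene read by the probe set of highest mean log2 level over the 6 arrays, 4 of 10 genes fell and 0 rose, against 7.85% of all genes that fell and 1.56% that rose. That level includes the nulls, so the rule can favour a probe set that did not fall, as for Dsg2 below. At an unadjusted p under 0.05 in the same limma fit, 5 fell and 0 rose. The median change of the 10 genes was -0.23, and that of all 18193 genes was 0.01. Among probe sets above the median level, a filter that removes Dsc2, the median of the 9 genes left was 0.03, and that of all genes was -0.02, so the sign of the first median rests on 1 gene. By probe set, 10 of 24 fell and 0 rose (14 and 0 at an unadjusted p under 0.05), against 5.55% and 1.46% of all probe sets. The genes were chosen with earlier results of these data known, so the comparisons with these shares, and with those that follow, are a description and no test.

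The 3 null arrays were each under the lowest control in 14 of the 24 probe sets, and in 0 were they each over the highest, where 13.8% and 13.6% of all probe sets did so. Of the 10 genes, 5 had all nulls below all controls and 0 all above, where 17.9% and 13.2% of all genes did so. The number of the 10 genes that fell was 1 without Control_1192, 2 without Control_8 or without Control_1193, 2 with quantile normalization and 2 with embryo sex as a term. It was 5 with arrays weighted by their fit to the model and 6 with the mean of a gene's probe sets. With the run of title numbers (Control_8 and Null_61 against the rest) as a block it was also 5. The number of probe sets that fell was 3 without Control_1192, 5 without Control_8 and 6 without Control_1193, and 6 with sex as a term. It was 12 with weighted arrays and 12 with the run as a block. Pkp2 is the gene that fell under every one of the 17 alternatives.

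**Figure D1:**
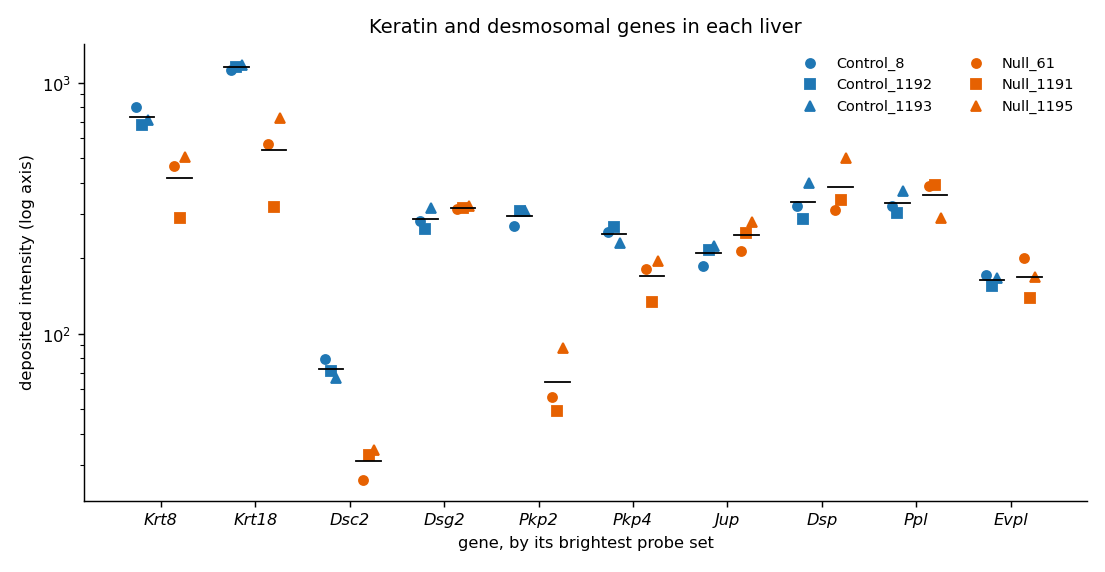
Deposited intensity (log axis) of each of the 10 genes, read by its brightest probe set, in the 3 control (blue) and 3 null (orange) livers; marker shapes separate the arrays and black bars are group means. The null points lie below all control points for Krt8, Krt18, Dsc2, Pkp2 and Pkp4, and the groups overlap for the other 5 genes; heights of different genes are not comparable, since probe sets differ in brightness.

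Krt18, the type I keratin of the hepatocyte, has a single probe set, 1448169_at. Its intensity was 1128 in Control_8, 1158 in Control_1192 and 1179 in Control_1193, against 570.2 in Null_61, 319 in Null_1191 and 723 in Null_1195. The controls lie close together and every null lies well below them, with Null_1191 the lowest. The means were 1155 ± 25.8 and 537 ± 204, a 2.19-fold fall (log2 change -1.13, standard error 0.24, adjusted p = 0.0259). The call was lost without Control_8 (adjusted p = 0.0790), Control_1192 (0.106) or Control_1193 (0.0944), with quantile normalization (0.0520) and with embryo sex as a term (0.0734). It was kept without each of the 3 nulls.

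Krt8, the type II partner of keratin 18, fell in all 3 of its probe sets. The brightest, 1420647_a_at, read 800.0, 679.9 and 708 in Control_8, Control_1192 and Control_1193, and 465, 288 and 504 in Null_61, Null_1191 and Null_1195. No null reached the lowest control, and Null_1191 was again the lowest. Its means of 729 ± 62.9 and 419 ± 115 are a 1.73-fold fall (log2 change -0.79, standard error 0.19, adjusted p = 0.0442). The other probe sets, 1435989_x_at and 1423691_x_at, fell from 634 ± 74.3 to 284 ± 105 and from 597 ± 76.2 to 264 ± 84.2, both with a log2 change of -1.13 (adjusted p = 0.0256 and 0.0152). The suffix _x_at marks probe sets with probes that can also match other sequences, so signal of related transcripts may enter them.

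The Krt8 call in 1420647_a_at lies near the threshold and held in 8 of 17 alternatives. It was lost without Control_8 (adjusted p = 0.150), Control_1192 (0.125), Control_1193 (0.123) or Null_1191 (0.0688), with quantile normalization (0.0996), no intensity trend (0.0582), a pseudocount of 1 (0.0549), sex as a term (0.106) and in the 4 arrays other than Control_8 and Null_61 (0.0572). In those 4 arrays 1435989_x_at and 1423691_x_at were called (0.0387 and 0.0203), but both lost the call without Control_8 (0.0964 and 0.0655), Control_1192 (0.0821 and 0.0545) or Control_1193 (0.0838 and 0.0562), and 1435989_x_at lost it with sex as a term (0.0679).

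The keratin partners moved in the same order across the null livers. Relative to the control mean on the log2 scale, Krt18 stood at -0.98 in Null_61, -1.76 in Null_1191 and -0.65 in Null_1195, whereas Krt8 in 1420647_a_at at -0.61, -1.25 and -0.50. The Krt18 value minus the Krt8 value was -0.37, -0.51 and -0.15 in these nulls and -0.16, 0.10 and 0.07 in Control_8, Control_1192 and Control_1193, so the groups overlap in that difference. The range of Krt18 over the null livers is wider than its distance from Krt8 in any of them. Hnf4a signal was also lowest in Null_1191 in each of its 4 probe sets. Its brightest, 1427001_s_at, read 1778 in Null_61, 1562 in Null_1191 and 2778 in Null_1195, against 2607 to 2877 in the controls. Null_1195 was also the highest null in 1421983_s_at (834, with Null_61 at 793). Null_61 was instead the highest null in 1427000_at (1493, with Null_1195 at 1395) and in 1450447_at (414, with Null_1195 at 327). Beyond the keratins, Null_1191 was the lowest null in Pkp4, in the called Dsg2 probe sets and in the brightest of Pkp2. It was not the lowest in Dsc2 or in the other called Pkp2 probe set. Whether the spread in Hnf4a signal has a part in the keratin spread was not tested.

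**Figure D2:**
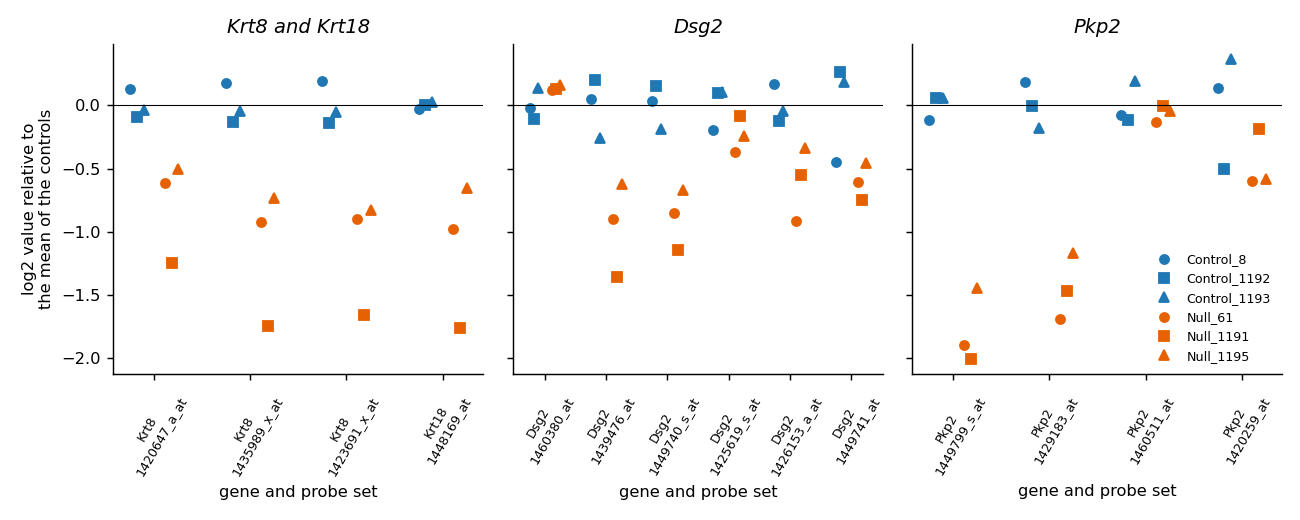
Log2 value of each array relative to the mean of the 3 controls, for every probe set of Krt8 and Krt18, of Dsg2 and of Pkp2 (controls blue, nulls orange, marker shapes for arrays). Null_1191 is the lowest array in all 4 keratin probe sets, 2 of the 6 Dsg2 probe sets stand near -0.9 on average in the nulls while the brightest, 1460380_at, does not, and 2 of the 4 Pkp2 probe sets lie below -1.1 in every null.

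Promoter windows from the RefSeq table of build GRCm38.p6 were matched for 5 of the 10 genes, namely Krt8, Krt18, Dsp, Jup and Pkp4, with 2 windows for Pkp4. The 250 bases before the annotated start are shown for the keratins, which fell, and for Dsp and Jup, which showed no call, so that the promoters can be set side by side. Krt8 lies at chr15:102004343-102004592 on the minus strand, Krt18 at chr15:102027966-102028215 on the plus strand, Dsp at chr13:38151044-38151293 on the plus strand and Jup at chr11:100397791-100398040 on the minus strand. Each is written 5′ to 3′ along the gene's strand, with GC boxes (GGGCGG on either strand) in capitals.
Krt8: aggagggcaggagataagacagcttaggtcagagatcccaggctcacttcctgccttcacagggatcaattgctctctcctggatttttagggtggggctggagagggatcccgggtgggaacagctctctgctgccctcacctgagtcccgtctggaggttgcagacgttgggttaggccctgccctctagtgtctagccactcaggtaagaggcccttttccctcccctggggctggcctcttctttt
Krt18: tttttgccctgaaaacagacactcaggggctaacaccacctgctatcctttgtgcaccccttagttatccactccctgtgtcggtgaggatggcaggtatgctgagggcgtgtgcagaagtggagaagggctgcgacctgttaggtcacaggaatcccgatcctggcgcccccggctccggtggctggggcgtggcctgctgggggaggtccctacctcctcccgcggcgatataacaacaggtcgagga
Dsp: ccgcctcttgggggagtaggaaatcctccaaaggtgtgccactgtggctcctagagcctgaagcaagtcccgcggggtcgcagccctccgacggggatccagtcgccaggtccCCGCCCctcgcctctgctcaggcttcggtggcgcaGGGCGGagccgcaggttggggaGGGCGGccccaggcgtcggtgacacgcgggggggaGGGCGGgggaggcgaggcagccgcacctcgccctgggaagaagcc
Jup: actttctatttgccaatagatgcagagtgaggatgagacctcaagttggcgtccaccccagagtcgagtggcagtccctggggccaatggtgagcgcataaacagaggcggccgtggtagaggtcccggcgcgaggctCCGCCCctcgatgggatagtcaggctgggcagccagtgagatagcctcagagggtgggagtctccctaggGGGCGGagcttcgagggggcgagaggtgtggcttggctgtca

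Letter patterns were searched on both strands of the 300-base windows, which run from 250 bases before to 50 after the start. The GC box letters occur 4 times in Dsp, 2 times in Jup and 6 times in the first Pkp4 window. They occur 0 times in the second Pkp4 window, in Krt8 and in Krt18, and 35.7% of all 32851 windows hold them. The TATA box letters TATAAA occur in Krt8 at the annotated start itself, beginning 1 base before it, with an overlapping match on the other strand, and 13.6% of windows hold them. The HNF4 pattern searched, CAAAGTNCA, is in none of the 6 windows and in 1.41% of all windows. The forkhead (FOXA) pattern searched, TGTTTAC, is likewise in none of the 6 and in 3.65% of all. The AP-1 pattern searched, TGANTCA, is in none of the 6 and in 7.81% of all. These are letter matches in a short window and say nothing of binding.

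Among the desmosomal cadherins, Dsc2, which encodes desmocollin 2, fell in both probe sets, each of which is dim. In 1421156_a_at the controls read 79.5, 71.0 and 66.8 and the nulls 26.1, 32.9 and 34.4 (in the order of the arrays above). No null came near a control, but both groups lie below the array medians. The log2 change was -0.73 with a standard error of 0.13 (adjusted p = 0.00984), and the call was lost without Control_1192 (0.0509). In 1426911_at the controls read 68.4, 48.0 and 49.5, while 2 of the nulls were listed below 0 at -1.16 and -4.48 and Null_1191 read 5.57. That probe set changed by -1.36 (standard error 0.16, adjusted p = 0.00115), a size set by the pseudocount, since a pseudocount of 1 gave -4.89 and one of 100 gave -0.61.

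Dsg2, the desmoglein of simple epithelia such as liver, gave different answers by probe set. The brightest over all arrays, 1460380_at, gave 281, 263 and 318 for the controls and 314, 317 and 323 for the nulls. The groups overlap, and the log2 change of 0.14 has a 95% interval from -0.13 to 0.40 (adjusted p = 0.546). Probe set 1439476_at was the brighter in the controls alone, with a mean of 367 against 287 in 1460380_at. Its controls stood at 378, 423 and 299 and its nulls at 179.8, 123 and 225, with every null below every control. It fell by 0.96 on the log2 scale (standard error 0.20, adjusted p = 0.0235). Its change in 1449740_s_at was of like size, -0.89 with a standard error of 0.16, from 263 ± 34.4 down to 128 ± 26.0 (adjusted p = 0.00972).

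The 3 remaining Dsg2 probe sets were not called. Mean intensity in 1425619_s_at was 156 ± 21.3 for controls and 128 ± 16.0 for nulls, and the dim 1426153_a_at and 1449741_at had log2 changes of -0.60 each with adjusted p values of 0.108 and 0.169. Each null was under the lowest control in both of the dim ones. In 1449741_at that gap was very narrow, with Null_1195 at 7.27 and Control_8 at 7.38. With the mean of its 6 probe sets, Dsg2 as a gene had a log2 change of -0.52 and an adjusted p of 0.0141, a call and a sign that the brightest probe set alone does not give. For 1439476_at the call did not survive leaving out Control_8 (adjusted p = 0.0839), Control_1192 (0.116) or Null_1191 (0.0662), nor sex as a term (0.0629), and for 1449740_s_at it did not survive leaving out Control_1192 (0.0603). Where in the transcript each probe set lies was not determined, and the difference between the probe sets was not tested.

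**Figure D3:**
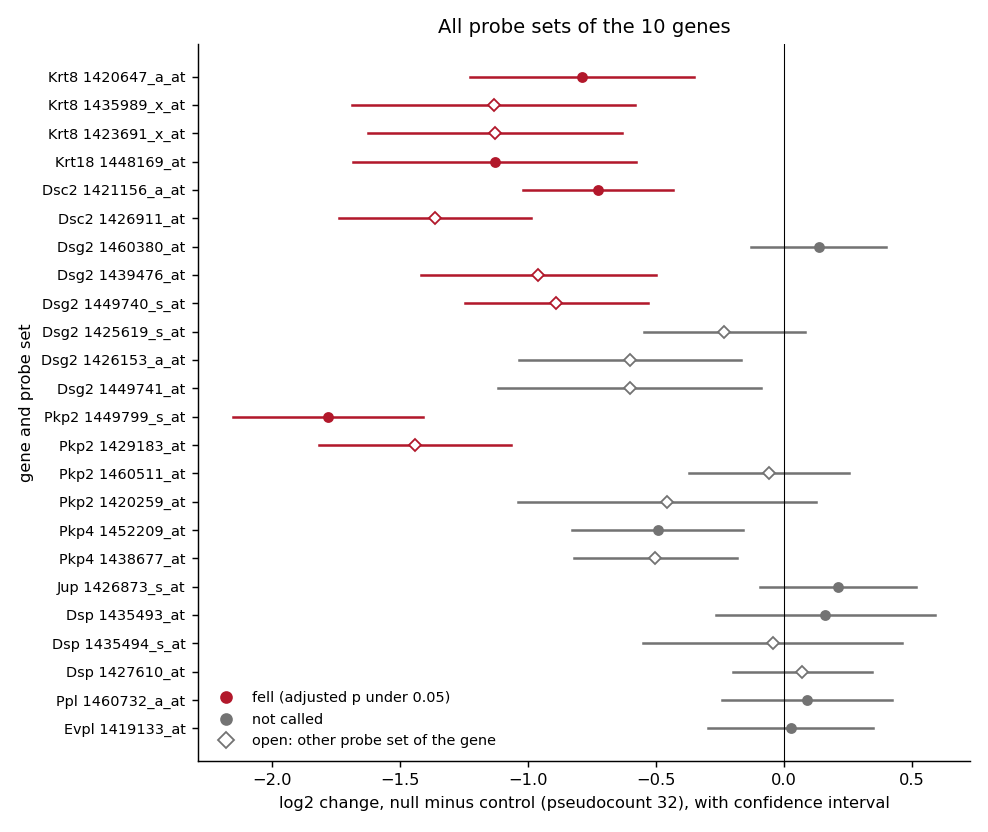
Log2 change (null minus control) with its 95% interval from limma for all 24 probe sets, red where the probe set fell and grey where it was not called; filled circles are the brightest probe set of a gene and open diamonds its others. The 10 red probe sets belong to Krt8, Krt18, Dsc2, Dsg2 and Pkp2, with log2 changes from -1.78 to -0.73, and the intervals of Jup, Dsp, Ppl and Evpl include 0.

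Pkp2 had the largest fall of the 10 genes when each is read by its brightest probe set. With the mean of a gene's probe sets its log2 change was -0.93, less than those of Krt18 (-1.13), Dsc2 (-1.04) and Krt8 (-1.02). Plakophilin 2 is the plakophilin of simple epithelia and heart muscle and tethers desmoplakin to the cadherin tails. Probe set 1449799_s_at read 269.5, 307 and 308 in Control_8, Control_1192 and Control_1193, and 55.9, 49.3 and 88.0 in Null_61, Null_1191 and Null_1195. All nulls fell below every array median, while the controls lie near the 81.7th percentile of control levels. The log2 change was -1.78 with a standard error of 0.16 (adjusted p = 0.000210), and it was called in all 17 alternatives, with adjusted p values up to 0.00299. Probe set 1429183_at gave 258, 222 and 193 for the controls against 47.0, 60.3 and 81.4 for the nulls (log2 change -1.44 with standard error 0.16, adjusted p = 0.000836) and was called in all of its 16 alternatives. The 2 other probe sets are dim in both groups and were not called: 1460511_at read 49.0 ± 9.76 and 45.5 ± 3.51, and 1420259_at read 17.9 ± 14.4 and 3.16 ± 6.41.

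By the Euclidean distance over the 6 arrays between log2 values taken relative to the control mean, the genes with a profile nearest to Pkp2 among 12359 others above the median level were Pank1, Cebpa, Dnase2a, Pecr and Apom. Their distances were 0.164, 0.184, 0.263, 0.280 and 0.280. Pank1, a pantothenate kinase of coenzyme A synthesis, averaged 575 ± 6.64 over the controls and 151 ± 31.9 over the nulls, and Cebpa, a transcription factor of hepatocyte differentiation, 1562 ± 45.6 and 464 ± 95.0. In both, as in Pkp2, Null_1195 was the highest of the nulls. These genes were picked for likeness, so their values are a description.

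Pkp4 was lower in every null than in every control in both probe sets, by a size that did not pass the test. In 1452209_at the controls stood at 253, 267 and 229.7 and the nulls at 181, 134 and 194, a log2 change of -0.49 with standard error 0.15 (adjusted p = 0.0893). The means in 1438677_at were 99.6 ± 10.6 and 61.3 ± 11.9, a log2 change of -0.50 with standard error 0.14 (adjusted p = 0.0735). Both passed with arrays weighted by their fit to the model (adjusted p = 0.0291 and 0.0225) and with the run of title numbers as a block (0.0460 and 0.0407). Pkp4 also passed with the mean of its probe sets (0.0401), and 1438677_at did so without Null_61 (0.0498).

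Jup encodes plakoglobin, the armadillo protein shared by desmosomes and adherens junctions. Its 1 probe set, 1426873_s_at, gave 186, 216 and 224 for the controls and 214, 251 and 278 for the nulls. The groups overlap only through Null_61, which lies below Control_1192 and Control_1193. The log2 change was 0.21 with a 95% interval from -0.09 to 0.52 (adjusted p = 0.406).

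Dsp encodes desmoplakin, the link from the desmosomal plaque to keratin. Its brightest probe set, 1435493_at, gave 324, 285 and 399 for the controls and 312, 341 and 499 for the nulls. The ranges overlap broadly, and Null_1195 is the highest array. The log2 change was 0.16 (standard error 0.19, 95% interval -0.27 to 0.59, adjusted p = 0.670). The other probe sets read 238 ± 31.0 and 237 ± 77.9 in 1435494_s_at and 88.9 ± 8.33 and 95.0 ± 6.35 in 1427610_at, with adjusted p values of 0.933 and 0.774. In 1435494_s_at Null_1191 read 147, below the lowest control at 205, while Null_61 and Null_1195 both read 282.

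The cornified-envelope plakins have 1 probe set each. Ppl, in 1460732_a_at, stood at 323, 303 and 369.7 for controls and 388, 393 and 290.4 for nulls (log2 change 0.09, 95% interval -0.24 to 0.42, adjusted p = 0.772). Evpl, in 1419133_at, stood at 171, 154 and 167 for controls and 201, 138 and 168 for nulls (log2 change 0.03, 95% interval -0.29 to 0.35, adjusted p = 0.938). In both the nulls span the controls. The intervals of Jup, Ppl, Evpl and the brightest probe sets of Dsp and Dsg2 lie wholly above the log2 change of Pkp4 (-0.49). That of the Dsp probe set 1435494_s_at, from -0.55 to 0.46, includes it. For Dsg2, the intervals of 1439476_at (-1.42 to -0.50) and 1449740_s_at (-1.25 to -0.53) lie below it, and those of its dimmer probe sets include it. The Pkp4 interval in 1452209_at runs from -0.83 to -0.16, and differences between genes were not tested.

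Control_8 and Null_61 carry lower title numbers than the other 4 arrays, and Krt18, Krt8, Dsc2, Pkp2 and Pkp4 were lower in the nulls within each of these runs. In the pair Null_61 minus Control_8, which is too small for a test, the log2 differences were -0.95 for Krt18, -0.74 for Krt8, -0.94 for Dsc2, -1.78 for Pkp2 and -0.42 for Pkp4. Within the other 4 arrays they were -1.22, -0.81, -0.62, -1.78 and -0.53, with adjusted p values of 0.0384, 0.0572, 0.0390, 0.000599 and 0.104. Embryo sex, read from Xist and Y-linked probe sets, was female in Control_8, Null_1191 and Null_1195 and male in Control_1192, Control_1193 and Null_61. Within the other 4 arrays both controls were thus male and both nulls female, while in the pair the control was female and the null male. Genotype and sex therefore cannot be told apart within either run, and the p values of the 4 arrays do not separate them. In the fit of all arrays with sex as a term, Dsc2 and Pkp2 kept their calls (0.0155 and 0.00127).

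Related genes on lists drawn up beside the 10 mostly did not pass the test, as is true of all genes, of which 7.85% fell and 1.56% rose. Of 11 measured other desmosomal and plakin genes, 1 fell and 0 rose (2 and 0 at an unadjusted p under 0.05), with a median log2 change of -0.11. The gene that fell was Eppk1, which encodes epiplakin, a plakin that binds keratin filaments: it went from 95.0 ± 27.5 to 26.4 ± 8.14 (log2 change -1.11, adjusted p = 0.00874, and 0.0506 without Control_1192), with a log2 change of -1.81 at a pseudocount of 1 and -0.62 at 100. Of 6 hemidesmosome genes, 1 fell and 0 rose (2 and 0 unadjusted), with a median of -0.20. It was Itgb4, the integrin beta 4 subunit that anchors keratin at the basement membrane, with means of 75.6 ± 14.5 for controls and 2.53 ± 6.07 for nulls (log2 change -1.58, adjusted p = 0.000402). Both Itgb4 means lie under every array median, and the log2 change was -4.39 with a pseudocount of 1 and -0.75 with 100. Of 7 armadillo-repeat and classical cadherin genes, 1 fell and 0 rose (2 and 0 unadjusted), with a median of -0.14. This was Cdh1, E-cadherin, which fell by 3.60 on the log2 scale (adjusted p = 6.86e-05), from 934 ± 130 to 52.4 ± 38.8. Its null mean lies under every array median, and the log2 change was -4.35 with a pseudocount of 1 and -2.78 with 100. Some genes counted as not called hold dimmer probe sets that fell, namely 1 of 2 for Cdh2 (N-cadherin), 1 of 3 for Plec (plectin) and, among regulators of epithelial genes, 2 of 4 for Trp63 (p63).

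Other keratins moved both ways. Of 17 measured, 2 fell and 1 rose, with a median of -0.07. Krt23, a type I keratin, gave 203, 306 and 285 for the controls and 93.1, 79.8 and 73.8 for the nulls (log2 change -1.36, adjusted p = 0.00103), and Krt20, a keratin of gut epithelium, gave 157, 160.5 and 109.9 and then 53.4, 60.4 and 39.1 (log2 change -1.07, adjusted p = 0.00465). In neither did a null reach a control. Krt14, a keratin of basal skin cells, rose from 164 ± 13.4 to 283 ± 43.4 (log2 change 0.68, adjusted p = 0.0192) in a probe set of type _x_at. Its 2 other probe sets were not called, and the call was lost with their mean (0.214), with sex as a term (0.0604) and without Control_1192 (0.0952), Control_1193 (0.0870) or Null_1195 (0.0621). Krt7 and Krt19, keratins of bile duct cells, averaged 64.2 ± 11.5 and 71.6 ± 15.3 over the controls against 80.2 ± 20.4 and 49.8 ± 10.7 over the nulls and were not called.

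Of 13 other filament genes and keratin partners, limma called 0 lower and 0 higher (0 and 3 at an unadjusted p under 0.05), with a median of 0.04. The brightest were Vim, the mesenchymal filament protein vimentin, at 1655 ± 113 and 1784 ± 127, and Lmna, nuclear lamin A/C, at 812 ± 119 and 754 ± 100.4. Of 18 regulators of epithelial genes, 2 fell and 0 rose (3 and 3 unadjusted), with a median of 0.07. Esrp2, an epithelial splicing factor, fell, from a mean of 364 ± 28.9 to one of 96.9 ± 29.4 (log2 change -1.64, adjusted p = 0.000415), with its other probe set not called. Grhl2, a grainyhead factor of epithelial junction genes, fell from 584 ± 54.2 to 335 ± 46.2 (log2 change -0.75, adjusted p = 0.0103). Its 3 other probe sets were not called, with their mean it stood at -0.12 (0.524), and the call was also lost without Control_8 (0.0516) or Control_1193 (0.0553).

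**Figure D4:**
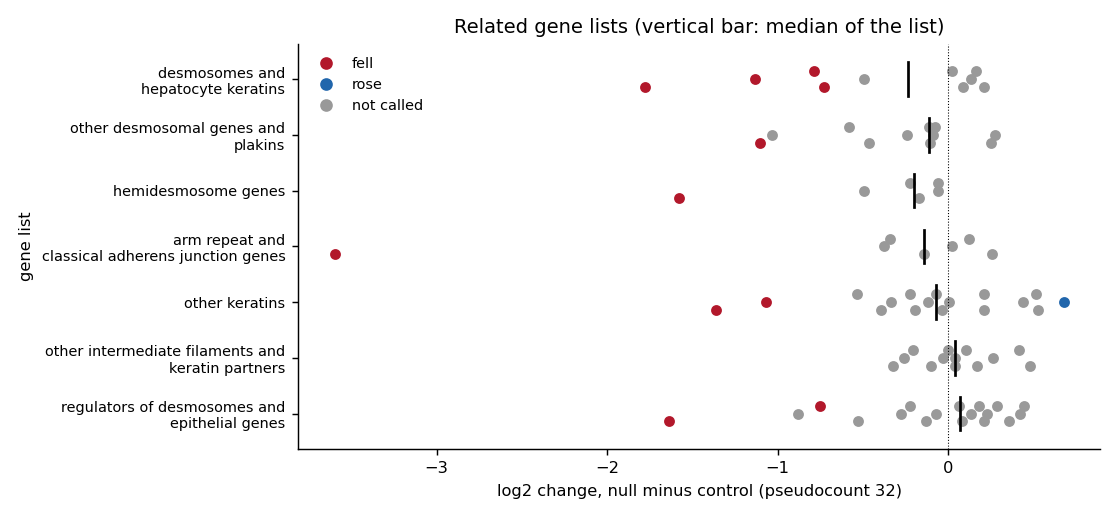
Log2 change (null minus control) of each gene of the 10 described and of 6 lists of related genes, 1 point per gene by its brightest probe set, red where it fell, blue where it rose and grey where it was not called; black bars are list medians. The 10 genes have 4 red points and a median of -0.23, and the lists have between 0 and 2 red points each with medians from -0.20 to 0.07.

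Markers of cells that could carry these genes were read beside them. For the hepatocyte list, 4 of 6 genes fell, and the summed intensity ran from 65611 to 66529 over the controls and from 38667 to 41947 over the nulls; Alb and Afp, its defining genes, were not called. They read 10165 to 11079 and 11302 to 11995 over the 6 arrays, close to the highest deposited value of 12608. Whether the signal is saturated there was not tested, so they were not taken as a measure of hepatocyte content. The 4 that fell read about as high in the controls (means of 11828 for Apoa1, 11081 for Fgb, 10429 for Apoa2 and 10369 for Ttr). The same limit holds for these control values and for the control sums. The null means of these genes were lower, at 3124 for Apoa1, 5654 for Fgb, 1979 for Apoa2 and 7593 for Ttr. For bile duct cells 0 of 5 genes passed (1 lower and 0 higher unadjusted), with sums of 657 to 741 and 628 to 806, and for mesothelium 1 of 6 rose (Wt1), with sums of 299 to 460 and 374 to 398. For surface epithelium 1 of 7 rose (Krt14), with sums of 1405 to 1928 and 1239 to 1424, while at an unadjusted p under 0.05 in limma 2 were lower, Lor at -0.48 and Trp63 at -0.88. For endothelium 3 of 7 fell (sums 1793 to 2054 and 1236 to 1452), for megakaryocytes 3 of 4 fell (3546 to 4452 and 2539 to 2881) and for macrophages 3 of 5 rose (2532 to 2835 and 3657 to 5253). For stellate and mesenchymal cells 0 of 7 passed (0 lower and 3 higher unadjusted; 3217 to 3479 and 3333 to 4635), and for erythroid cells 0 of 5 (0 lower and 1 higher unadjusted; 13212 to 13757 and 14057 to 15490). No marker was listed at or below 0 in all 6 arrays. The part of these cells in the keratin and desmosomal values was not tested.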

How the data were processed

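Biotin-labelled liver RNA was hybridised to Affymetrix mouse arrays, per the labels' protocols. The deposited values are linear intensities, 0.908% to 1.34% of them below 0 and the highest 12608; their summarisation and scaling: not given in the sources used here. Scaling was kept as deposited (array log2 medians differ by at most 0.0877). Negative values were raised to 0, and log2(intensity + 32) was fitted for 45037 probe sets, 64 control probe sets left out, with limma 3.58.1 in R 4.3.3 (lmFit, eBayes with trend, 6 arrays, no covariate); the fit was tested on simulated data. Symbols come from the platform annotation (34945 probe sets with 1 symbol, 932 with several, 9160 with none), and 34741 matched a RefSeq gene of GRCm38.p6 by Entrez number. Intervals cover 95%.

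Whether the livers came from separate litters is not stated, so the p values rest on the spread among these arrays, whose number limits the precision. Genes and lists were chosen with earlier results of these data known. All 10 genes are named, then from each related list up to 4 called genes a direction by smallest adjusted p, or else the 2 brightest, and the 5 genes nearest in profile to Pkp2; Krt7, Krt19, Cdh2, Plec, Trp63 and Lor were chosen after their values were seen. An exact permutation test of 3 against 3 cannot go below 0.1, so none is given. Alternatives were other pseudocounts, scalings, filters, variance models and weights, the title-number run, sex, probe-set means and each array left out.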

Additional observations from a re-analysis of the deposited data

How the results depend on the processing

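Of the 10 genes, 4 fell in the fit reported; the count was 2 with quantile normalization and 2 with sex as a term, and 1 to 4 when single arrays were left out. Of the 24 probe sets, 10 fell; the count was 6 with sex as a term and 3 to 11 when single arrays were left out. Leaving out an array also leaves fewer residual degrees of freedom. Under the other alternatives the counts stayed within 1.5 times the reported ones, and 0 genes or probe sets rose under any. Dsg2 changed sign, from 0.14 to a called -0.52, with the mean of its probe sets, by construction, since its other probe sets enter. Quantile normalization moved the median of all genes from 0.01 to 0.06. A filter on probe sets above the median level removed both Dsc2 probe sets, so no value exists there. Where a group mean lies below the highest array median, as in 10 of the 24 probe sets (4 of Pkp2, 2 of Dsc2, 2 of Dsg2, 1 of Pkp4 and 1 of Dsp), the size of a change depends on the pseudocount. No paired analysis was possible because the groups share no replicate number.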
